A study of Homo sapiens with 6 samples.

Results

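The mitochondrially encoded transcripts are the RNAs made from the circular DNA inside mitochondria. They were taken as all rows of the count files whose Ensembl identifier lies on the mitochondrial chromosome, which gave 37 genes of 60708 listed: 13 mRNAs, 2 rRNAs and 22 tRNAs. The counts come from RNA sequencing of U2OS, a long-established cell line from a human bone tumour (osteosarcoma), in 2 groups of 3 libraries. One group was kept in DMSO, the solvent. The other, called PARGi, was kept in 25 µM PDD00017273, which blocks PARG, the glycohydrolase that takes apart poly(ADP-ribose) chains on proteins. Exposure lasted 4 days, and the series text describes the cells of both groups as wild type. The series text calls the 3 libraries of a group biological replicates. All of them come from this single line.

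Human mitochondrial DNA is transcribed along its whole length from both strands into long precursor RNAs. Most tRNAs sit between the longer genes, and their excision by dedicated nucleases releases the mRNAs and rRNAs. The mRNAs encode core subunits of the respiratory chain complexes I, III and IV and of the ATP synthase, and the rRNAs build the mitochondrial ribosome. Transcripts read in the direction of the reference sequence are called heavy-strand transcripts here, because the heavy strand is their template. The others, MT-ND6 and 8 of the tRNAs, are called light-strand transcripts.

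Depth ran from 60286931 to 80605145 counts per library, of which 2182754 to 2834668 fell on mitochondrial genes. Values are counts scaled to a common library size (CPM, on the per-million scale) after trimmed-mean (TMM) scaling. A count is a share of its library, so fewer mitochondria, fewer transcripts per mitochondrion and more RNA from the nucleus cannot be told apart. The osteoblast-lineage markers COL1A1, SPARC and RUNX2 were present at 4126 to 4657, 1570 to 1686 and 68.2 to 84.5 CPM. SP7 and BGLAP stayed below 0.14 CPM in every library and IBSP was at 0 counts. Of 14 markers of other cell types, EPCAM, KRT5 and PTPRC reached 1 CPM, and the highest of these, EPCAM, reached 3.78 CPM. Those 14 summed to 7.23 to 7.72 CPM in DMSO and 6.45 to 6.67 CPM in PARGi, and their part in the results was not tested.

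The levels of the mitochondrial genes spanned a wide range in both groups. Compared per kilobase of gene length, MT-CO1, which encodes the catalytic core of complex IV, ranked first with 6736 ± 487 CPM per kilobase under DMSO, and with 6589 ± 142 under PARGi (SD over 3 libraries). MT-CO3 and MT-CO2, which encode the other mitochondrial subunits of complex IV, lay at 4439 ± 206 and 4035 ± 335 CPM per kilobase in DMSO. The large rRNA, MT-RNR2, lay between them at 4334 ± 170, and the ranges of these 3 neighbours overlapped within DMSO. MT-ND4 (2432 ± 170), MT-ATP6 (2316 ± 201) and MT-CYB (2258 ± 159 CPM per kilobase) followed, again with overlapping neighbours. Below them the complex I mRNAs MT-ND1 (1727 ± 109), MT-ND2 (1107 ± 81.3) and MT-ND5 (918.6 ± 34.2 CPM per kilobase) did not overlap their neighbours in the order. The small rRNA, MT-RNR1, stood at only 598 ± 25.3 CPM per kilobase, between MT-ND3 (664 ± 63.6) and MT-ND4L (529 ± 65.9), although both rRNAs come from the same precursor. MT-ND6 (265 ± 89) and MT-ATP8 (175 ± 10.3 CPM per kilobase) were the lowest mRNAs by this measure, and they overlapped. MT-ATP8 shares 46 of its 207 bases with MT-ATP6, and the division was by full length. How reads that span both genes were counted is not given in the sources used here. The MT-ATP8 value therefore describes counts assigned to the gene and not the amount of its RNA. Which rRNAs were depleted from the total RNA is not given in the sources used here, so the rRNA levels describe the libraries and not the cells. Across the 13 mRNAs, the level per kilobase in DMSO went up with the number of bases that belong to a gene alone (Spearman's rho = 0.582, Pearson's r on log2 values = 0.685, n = 13 genes of the same libraries, a description). Along the 12 heavy-strand mRNAs, the level per kilobase showed little relation to the start position (rho = -0.175, r = -0.133, n = 12 genes).

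**Figure D1:**
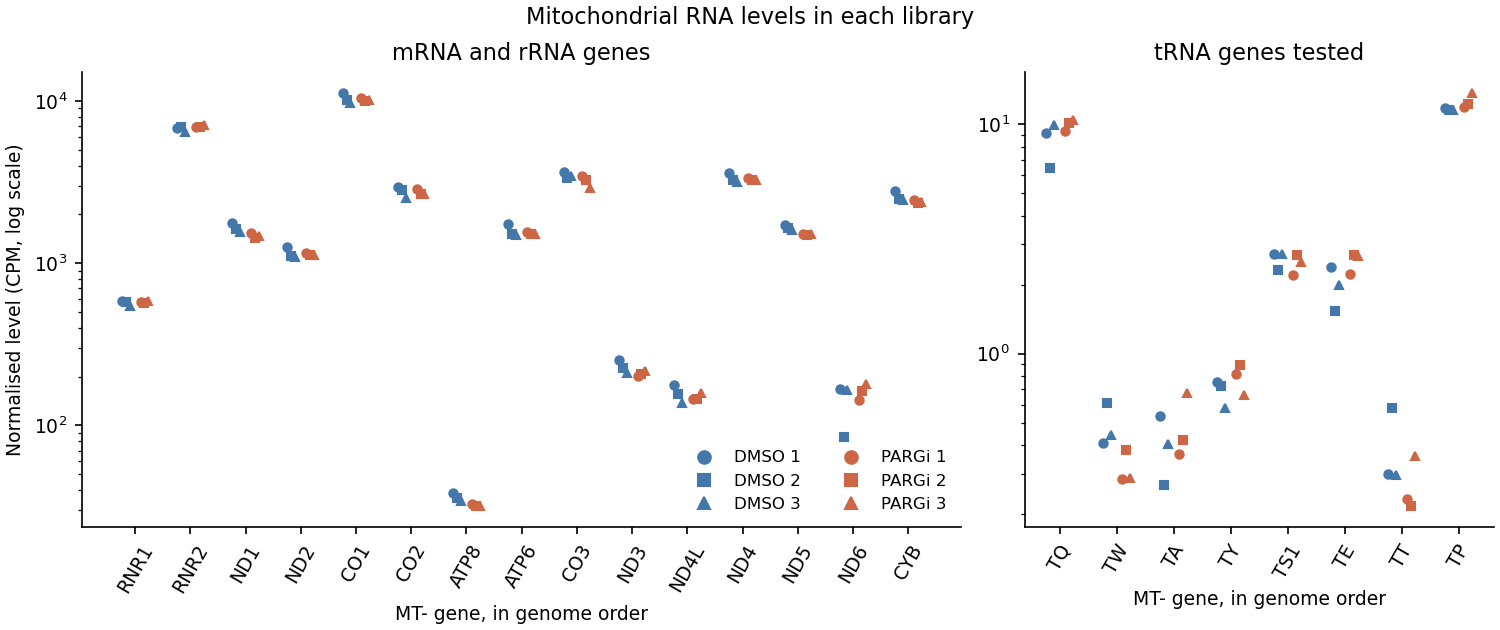
Normalised level (CPM, log scale) of the 15 mRNA and rRNA genes and of the 8 tRNA genes with enough counts for a test, in genome order, with a symbol for each of the 3 DMSO and 3 PARGi libraries. Most genes differ far more from each other than the groups do, and DMSO replicate 2 sits apart at MT-ND6 (85.2 CPM).

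The first comparison asked whether the amount of mitochondrial RNA differed between inhibitor and solvent. Summed over the 13 mRNAs, the level was 31368, 28452 and 27671 CPM in DMSO replicates 1 to 3 and 28825, 27618 and 27482 CPM in PARGi replicates 1 to 3. DMSO replicate 1 was the highest library, and the groups overlapped. Mean levels of 29164 ± 1948 and 27975 ± 740 CPM (SD, n = 3 each) differed by -0.058 in log2 (p = 0.5 by an exact two-sided permutation test, which cannot go below 0.1 with 3 libraries a group). The 2 rRNAs together averaged 7326 ± 287 CPM under DMSO against 7575 ± 122 CPM under PARGi, 0.049 apart in log2 (p = 0.3 by the same exact test). The tRNA genes together held 26.8 ± 2.41 CPM under DMSO against 29.5 ± 1.98 CPM under PARGi, 0.15 apart in log2 (p = 0.3, exact test). For each of the 3 classes the groups overlapped. Relative to the mRNAs, rRNA counts made up 23.7%, 26.5% and 25.3% in DMSO and 26.1%, 27.1% and 28.1% in PARGi, and these groups overlapped as well (0.11 apart in log2, p = 0.2, exact test). Dropping DMSO replicate 3 took the mRNA difference to -0.095, and dropping DMSO replicate 1 took it to -0.0046. The rRNA difference was 0.016 without DMSO replicate 3, and the tRNA difference was 0.068 without DMSO replicate 2.

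Gene by gene, the differences were small and went down among the heavy-strand mRNAs. Enough counts for a test were present in 23 of the 37 genes: all 13 mRNAs, both rRNAs and 8 of the 22 tRNAs. With edgeR's quasi-likelihood test and a Benjamini-Hochberg adjusted p under 0.05 over all 20409 genes tested, 6 mitochondrial genes passed, and all 6 were mRNAs that fell in PARGi. Across all genes 24.3% passed, 13.2% as higher and 11.0% as lower. The 26.1% among the mitochondrial genes tested is therefore near the background, and the 46.2% among mRNAs lies above it. This excess was not kept in every setting. DESeq2 called 3 of the 13 mRNAs, beside 21.8% of all genes it tested. Without DMSO replicate 1, 3 of the 13 passed, beside 4051 of 20996 genes. Without PARGi replicate 2 it was again 3, beside 3606 of 20623 genes. With edgeR and all 6 libraries, the median log2 fold change was -0.067 over the 13 mRNAs and 0.033 over the rRNAs. It was 0.163 over the 8 tRNAs tested, against -0.0071 over all genes. The groups did not overlap for 4 of the 13 mRNAs, all lower. Of all genes tested, 38.0% had groups that did not overlap, 19.8% with PARGi higher and 18.2% with PARGi lower. Including tRNAs, 5 mitochondrial genes were separate with PARGi lower and 1 with PARGi higher.

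The 6 mRNAs that fell were MT-ND1, MT-ND3, MT-ND5, MT-CYB, MT-CO3 and MT-ATP8. They came from all 4 complexes: 3 of the 7 mRNAs of complex I, the single mRNA of complex III, 1 of the 3 of complex IV and 1 of the 2 of the ATP synthase. Their changes ran from -7.17% to -11.1% of the DMSO level.

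MT-ND5 encodes a proton-pumping membrane subunit of complex I and lies at 12337 to 14148 on the mitochondrial chromosome (GRCh38, GENCODE 29). Its level was 1733, 1647 and 1613 CPM in DMSO replicates 1 to 3 and 1525, 1490 and 1505 CPM in PARGi replicates 1 to 3. The highest PARGi value was below the lowest DMSO value, and PARGi spread little. The log2 fold change was -0.14 (SE 0.025, 95% interval -0.20 to -0.091, edgeR adjusted p = 0.000161), a change of -9.48%.

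MT-ND1, at 3307 to 4262, encodes the complex I subunit at the junction to the quinone-binding site. It stood at 1767, 1622 and 1565 CPM in DMSO and at 1533, 1424 and 1475 CPM in PARGi replicates 1 to 3. Again every PARGi library was below every DMSO library. The log2 fold change was -0.16 (SE 0.033, 95% interval -0.23 to -0.092, edgeR adjusted p = 0.000853).

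MT-ATP8, at 8366 to 8572, encodes a small membrane subunit of the ATP synthase. Its level was 38.5, 35.7 and 34.3 CPM in DMSO and 32.6, 31.7 and 32.1 CPM in PARGi replicates 1 to 3. The groups did not overlap. The log2 fold change was -0.17 (SE 0.040, 95% interval -0.25 to -0.088, edgeR adjusted p = 0.00264).

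MT-ATP8 shares its RNA with MT-ATP6, the proton-channel subunit of the ATP synthase, and the reading frames overlap. The gene is printed to show how much of it is shared. It is given 5′ to 3′ from the GENCODE 29 transcript (chrM:8366-8572, forward strand), with the 46 bases shared with MT-ATP6 in capitals:
MT-ATP8: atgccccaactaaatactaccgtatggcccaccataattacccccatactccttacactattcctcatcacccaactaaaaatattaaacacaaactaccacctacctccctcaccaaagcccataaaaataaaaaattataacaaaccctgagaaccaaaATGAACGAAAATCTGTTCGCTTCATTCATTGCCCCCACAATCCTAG
The second such pair is MT-ND4L and MT-ND4, both complex I subunits, which share 7 bases. The last 60 bases of MT-ND4L are shown for comparison (chrM:10707-10766, forward strand), with the shared bases in capitals:
MT-ND4L: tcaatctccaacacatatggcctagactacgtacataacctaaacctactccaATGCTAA

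Although each pair lies on a joint RNA, the counts of its members differed. Per base that belongs to a gene alone (161 in MT-ATP8, 634 in MT-ATP6), MT-ATP6 had 11.4, 10.8 and 11.0 times the counts of MT-ATP8 in DMSO and 12.1, 12.1 and 12.0 times in PARGi replicates 1 to 3. This ratio was higher in every PARGi library than in any DMSO library (0.13 apart in log2, exact p = 0.1, the lowest this design allows). MT-ATP6 itself, with means of 1577 ± 137 CPM under DMSO and 1528 ± 26.0 CPM under PARGi, was not called (log2 fold change -0.046, SE 0.037, edgeR adjusted p = 0.414). For the other pair, MT-ND4 had 4.33 to 4.92 times the counts of MT-ND4L per base of its own, and the groups overlapped. How reads that span both genes of a pair were counted is not given in the sources used here.

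MT-CYB, the cytochrome b subunit of complex III, was at 2786, 2473 and 2471 CPM in DMSO and at 2441, 2350 and 2383 CPM in PARGi replicates 1 to 3. The groups were separate, by a small margin between DMSO replicate 3 and PARGi replicate 1. The log2 fold change was -0.11 (SE 0.033, edgeR adjusted p = 0.0185). MT-ND3, a short complex I mRNA, was at 253, 226 and 209 CPM in DMSO and at 203, 208 and 216 CPM in PARGi. Here the groups overlapped, since PARGi replicate 3 exceeded DMSO replicate 3 (log2 fold change -0.13, SE 0.042, edgeR adjusted p = 0.0224). MT-CO3, at 3661, 3351 and 3430 CPM in DMSO and 3453, 3259 and 2893 CPM in PARGi, also overlapped, and its fall (log2 fold change -0.12, SE 0.041, edgeR adjusted p = 0.0334) leaned on PARGi replicate 3. Without that library, the log2 fold change of MT-CO3 was -0.052 and its edgeR adjusted p 0.334. Without DMSO replicate 1, MT-CYB had a log2 fold change of -0.050 (edgeR adjusted p = 0.166), MT-ND3 of -0.061 (0.232) and MT-CO3 of -0.085 (0.201). Without PARGi replicate 2 the adjusted p-values were 0.113, 0.0905 and 0.0731 in the same order. MT-ND3 also lost its call without PARGi replicate 1 (0.129) and MT-CYB without PARGi replicate 3 (0.0787).

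The remaining heavy-strand mRNAs did not pass, with narrow intervals. MT-CO1 had a log2 fold change of -0.032 (95% interval -0.10 to 0.036, edgeR adjusted p = 0.536) and MT-CO2 of -0.012 (-0.092 to 0.068, edgeR adjusted p = 0.862). The complex I mRNAs MT-ND2 and MT-ND4 had values of -0.024 (-0.094 to 0.046) and -0.028 (-0.096 to 0.039), and MT-ND4L of -0.067 (-0.18 to 0.042, edgeR adjusted p = 0.400). For MT-CO1 this leaves room for changes from -6.67% to 2.52%. Falls of the size seen for MT-ND1 and MT-ND5 lie outside the intervals of MT-CO1, MT-CO2, MT-ND2 and MT-ND4. The fold change along the 12 heavy-strand mRNAs showed little relation to the start position (rho = -0.14, r = -0.165, n = 12 genes, a description). In the annotation, 7 mRNAs end in a complete stop codon and 6 in T or TA, where polyadenylation supplies the rest of the codon. Among the 6 that fell, 4 were of the second kind and 2 of the first.

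**Figure D2:**
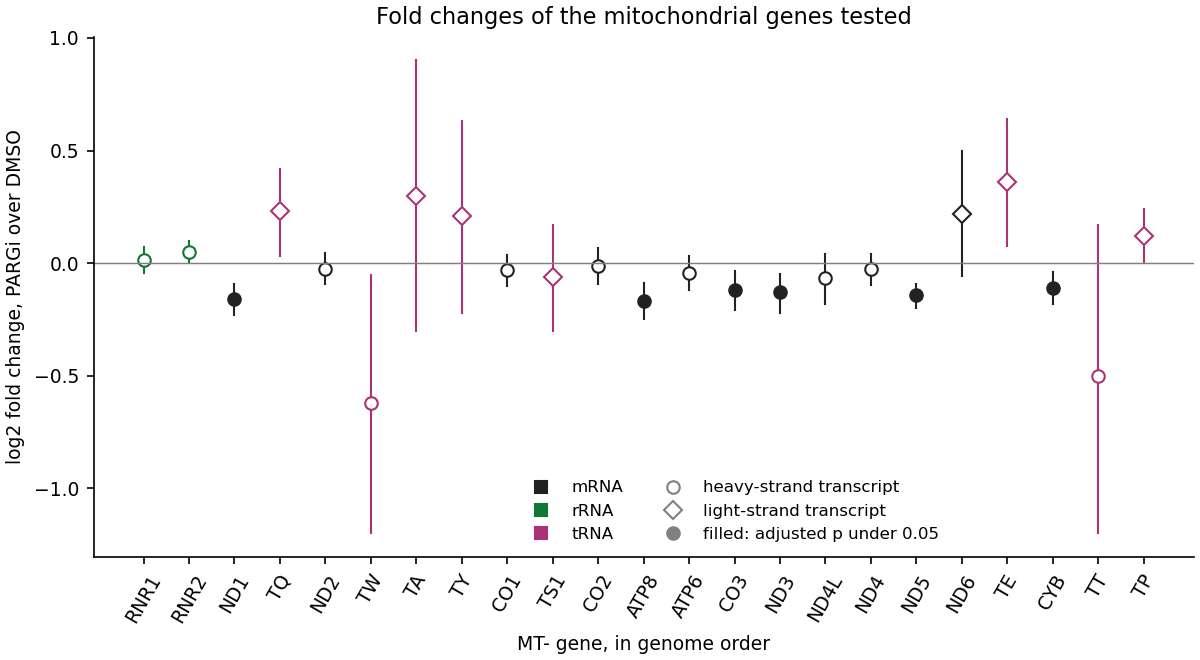
Log2 fold change (PARGi over DMSO) with 95% intervals for the 23 mitochondrial genes tested, in genome order, by class (colour) and strand (symbol). The 6 filled symbols, past the adjusted threshold, are all heavy-strand mRNAs below 0, and 6 of the 7 light-strand genes have values above 0 without passing.

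Single libraries weighed on these values. DMSO replicate 1 held the highest level of all 6 libraries for each of the 12 heavy-strand mRNAs, and DMSO replicate 3 the lowest DMSO level for 11 of them. Without DMSO replicate 1, the median log2 fold change of the 13 mRNAs was 0.024, with 7 values above 0 and 6 below. Without DMSO replicate 3 it was -0.132, and 12 mitochondrial genes passed, 10 lower and 2 higher. Over all genes, 4849 of 20563 passed in that setting. Without PARGi replicate 2, where 3606 of 20623 genes passed over all genes, 3 mitochondrial genes did, and likewise 3 in DESeq2 with all libraries. These 3 were MT-ND1, MT-ND5 and MT-ATP8, which stayed past the threshold in all 13 alternatives, whereas MT-CYB, MT-ND3 and MT-CO3 each passed in 9 of 13. DESeq2 called 21.8% of the genes it tested and 8.76% as lower. With DMSO replicate 1 left out, the log2 fold changes of MT-ND1, MT-ND5 and MT-ATP8 were -0.111, -0.116 and -0.125.

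**Figure D3:**
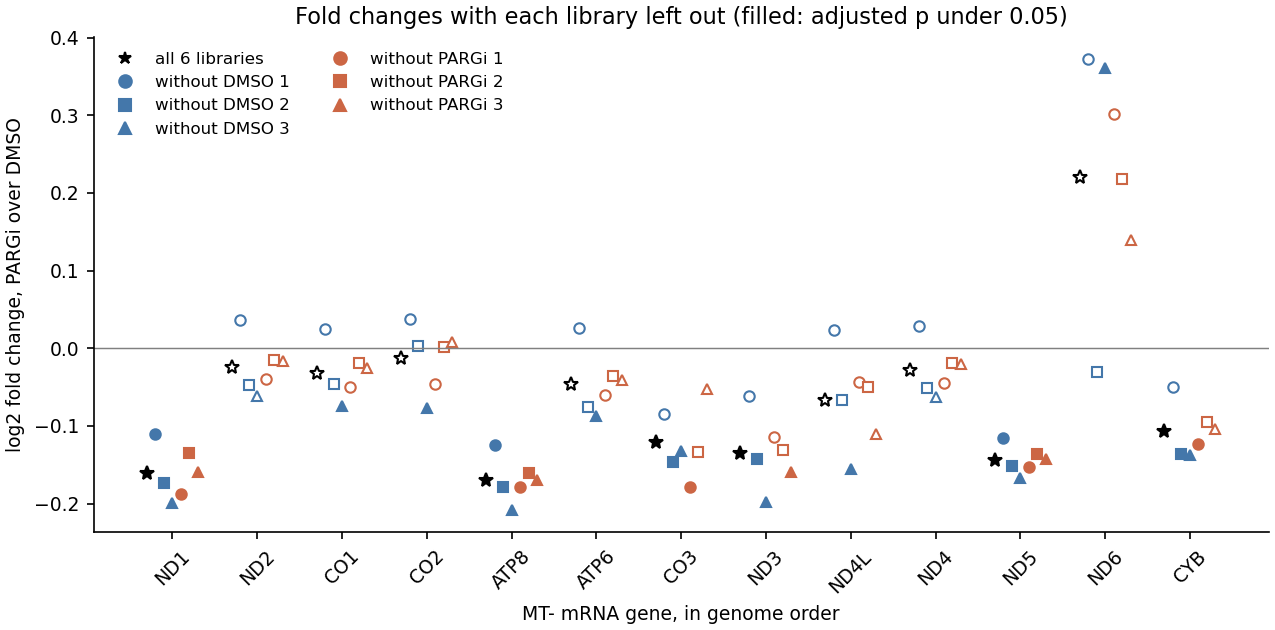
Log2 fold change of the 13 mRNAs with all 6 libraries (star) and with each library left out (colour and symbol), filled where the edgeR adjusted p is under 0.05. MT-ND1, MT-ATP8 and MT-ND5 stay below 0 and filled throughout, while MT-ND6 reaches 0.372 when DMSO replicate 1 is left out and -0.031 when DMSO replicate 2 is.

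The second comparison took the composition of the mitochondrial mRNA counts, which does not depend on the scaling between libraries. The share of an mRNA in the sum of all 13 differed without overlap for 7 mRNAs, 4 lower and 3 higher in PARGi. For levels, 38.0% of all genes tested had groups that did not overlap. No such background was computed for shares, so the 7 are a description. Shares add up to the same total, so a lower share of some mRNAs raises that of others. MT-ND1 held 5.63%, 5.70% and 5.65% of the mRNA counts in DMSO and 5.32%, 5.16% and 5.37% in PARGi replicates 1 to 3. The DMSO libraries were nearly equal here, including replicate 1, which had the highest absolute level. MT-ND5 held 5.53%, 5.79% and 5.83% in DMSO and 5.29%, 5.40% and 5.48% in PARGi, and MT-ATP8 held 0.124% ± 0.00131 under DMSO against 0.115% ± 0.00197 under PARGi (SD, n = 3 each). MT-CYB, the fourth lower mRNA, went from 8.83% ± 0.127 to 8.55% ± 0.108. Its groups were separate by a small margin, between DMSO replicate 2 (8.69%) and PARGi replicate 3 (8.67%). The higher shares were those of MT-CO1 (35.6% ± 0.273 to 36.3% ± 0.32), MT-ND4 (11.5% ± 0.0816 to 11.7% ± 0.0828) and MT-ND2 (3.96% ± 0.0335 to 4.06% ± 0.0305). For each of these 7 the exact two-sided p was 0.1, the lowest this design allows. As a log2 difference of shares, MT-ND1 changed by -0.10, MT-ATP8 by -0.11, MT-ND5 by -0.085 and MT-CO1 by 0.029. The shares of MT-CO2, MT-CO3, MT-ATP6, MT-ND3, MT-ND4L and MT-ND6 overlapped between the groups.

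**Figure D4:**
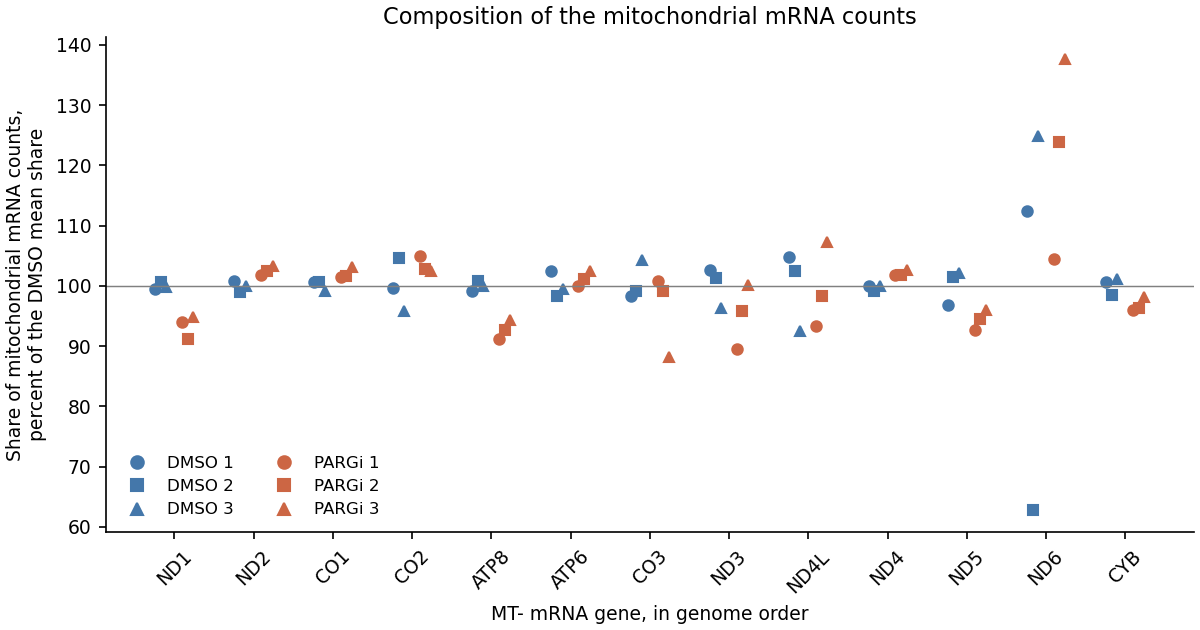
Share of each mRNA in the summed mitochondrial mRNA counts of its library, as a percentage of the mean DMSO share, with a symbol for each library. The PARGi libraries lie below the DMSO libraries for MT-ND1, MT-ATP8, MT-ND5 and MT-CYB and above them for MT-ND2, MT-CO1 and MT-ND4.

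The rRNAs did not follow the mRNAs that fell. MT-RNR2 stood at 6847, 6964 and 6457 CPM in DMSO and 6944, 6921 and 7133 CPM in PARGi replicates 1 to 3. DMSO replicate 3 was the lowest library and PARGi replicate 3 the highest, and the groups overlapped (log2 fold change 0.051, 95% interval -0.00075 to 0.10, edgeR adjusted p = 0.149). Single DMSO libraries moved this value. MT-RNR2 passed as higher without DMSO replicate 2 (0.074, edgeR adjusted p = 0.0223) and was at 0.019 without DMSO replicate 3 (edgeR adjusted p = 0.563). MT-RNR1 averaged 570 ± 24.2 CPM under DMSO and 576 ± 6.86 CPM under PARGi (log2 fold change 0.014, 95% interval -0.042 to 0.071, edgeR adjusted p = 0.761). Its sign was negative, at -0.011, with upper-quartile scaling.

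MT-ND6, a complex I subunit, is the only mRNA read from the light strand (14149 to 14673, reverse strand). Its level was 168, 85.2 and 164 CPM in DMSO and 143, 163 and 180 CPM in PARGi replicates 1 to 3. DMSO replicate 2 lay far below the other 5 libraries, which overlapped. The MT-ND6 log2 fold change of 0.22 had a wide 95% interval, from -0.057 to 0.50 (edgeR adjusted p = 0.257). Without DMSO replicate 2 it was -0.031. The ratio of MT-ND6 to the 12 heavy-strand mRNAs showed the same library: it was 0.538%, 0.300% and 0.598% in DMSO and 0.499%, 0.594% and 0.660% in PARGi (0.34 apart in log2, p = 0.5, exact test). Without DMSO replicate 2 that difference was 0.034.

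The low value of DMSO replicate 2 recurred among light-strand tRNAs. Of the 6 with enough counts, 5 had their lowest DMSO level in this library, and 4 their lowest level of all libraries. Relative to the mean of DMSO replicates 1 and 3, its level was 51.3% for MT-ND6, 56.9% for MT-TA, 67.4% for MT-TQ and 70.0% for MT-TE. The other light-strand tRNAs were less affected, with 85.1% for MT-TS1, 97.7% for MT-TP and 108% for MT-TY. By contrast, this library was the lowest DMSO library for 1 of the 12 heavy-strand mRNAs, and for the heavy-strand tRNAs MT-TW and MT-TT it was the highest of all 6.

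**Figure D5:**
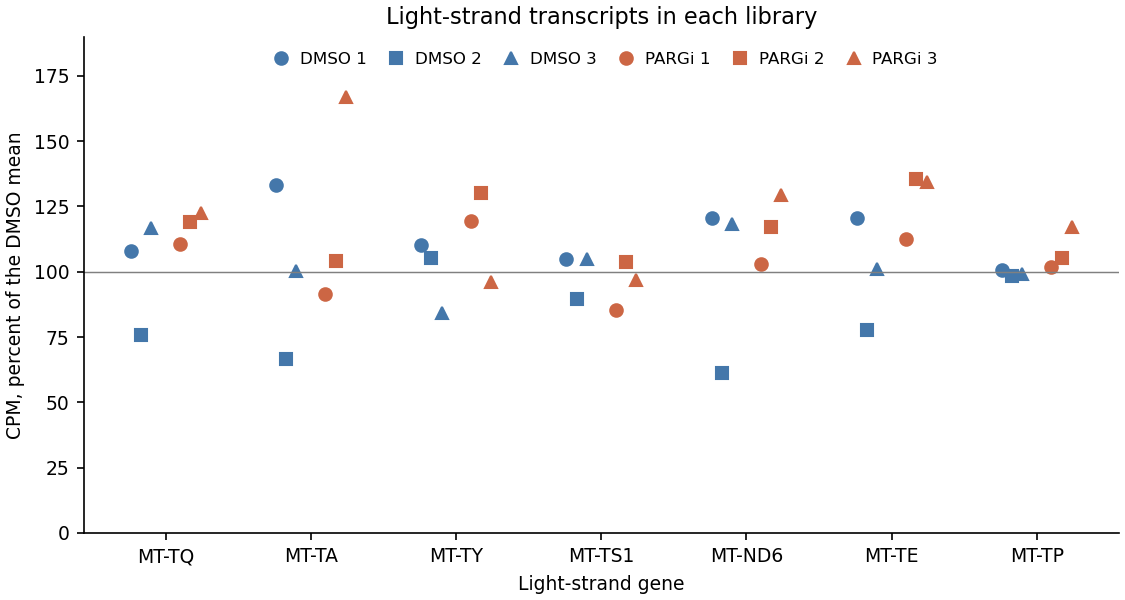
Level of the 7 light-strand genes tested, as a percentage of the mean DMSO level, with a symbol for each library and the axis starting at 0. DMSO replicate 2 lies lowest at MT-ND6, MT-TA, MT-TQ and MT-TE and, by a small margin, at MT-TP, where the libraries spread least.

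The tRNA genes fell into counted and uncounted ones, and the split followed their surroundings. tRNAs carry amino acids to the ribosome. Of the 22 genes, 11 had no count in any library, 2 more never exceeded 1 count, and 9 had between 42 and 5077 counts summed over the 6 libraries. The 13 genes with at most 1 count all had a neighbour on the same strand within 100 bases on both sides. All 9 with more had at least 1 side free of such a neighbour, and the 3 free on both sides, MT-TP, MT-TQ and MT-TS1, were the 3 with the most counts. They had totals of 5077, 3871 and 1052. Of the 8 light-strand tRNAs 6 were counted, against 3 of the 14 heavy-strand tRNAs. MT-TF, the phenylalanine tRNA at the start of the heavy-strand genes, was counted but too low for a test, with 7, 3 and 8 counts in DMSO and 3, 10 and 11 in PARGi. This neighbour rule was noticed in these counts and is a description. A count of 0 in a library allows up to 3 counts, and it concerns reads assigned to the gene, not the presence of the tRNA.

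The 4 most counted tRNAs and 2 at 0 from the same strand are shown with their anticodon in capitals, because they carry this contrast. Sequences are those of GENCODE 29 transcripts (GRCh38), 5′ to 3′, on the reverse strand of the mitochondrial chromosome. The anticodon was found as the expected triplet in a loop of 7 bases closed by a stem of 5 pairs.
MT-TP (proline, chrM:15956-16023): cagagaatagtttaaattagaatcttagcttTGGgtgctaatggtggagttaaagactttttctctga
MT-TQ (glutamine, chrM:4329-4400): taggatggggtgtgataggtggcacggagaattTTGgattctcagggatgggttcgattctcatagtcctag
MT-TS1 (serine, chrM:7446-7514): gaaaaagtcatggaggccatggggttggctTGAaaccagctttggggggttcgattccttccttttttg
MT-TE (glutamate, chrM:14674-14742): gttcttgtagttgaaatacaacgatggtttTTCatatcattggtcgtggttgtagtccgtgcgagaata
MT-TN (asparagine, chrM:5657-5729, no counts): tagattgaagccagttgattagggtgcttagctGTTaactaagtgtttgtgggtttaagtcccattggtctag
MT-TC (cysteine, chrM:5761-5826, no counts): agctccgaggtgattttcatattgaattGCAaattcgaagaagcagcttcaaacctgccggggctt

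No tRNA passed the adjusted threshold in edgeR's main test with all libraries, while 24.3% of all genes tested did. An unadjusted p under 0.05 was reached by 4 of the 8 tested. The share of all genes at that looser threshold was not computed, so the 4 are a description. DESeq2 gave adjusted p-values for 7 of these 8, all but MT-TT, and called none. MT-TP was at 11.8, 11.5 and 11.6 CPM in DMSO and 11.9, 12.3 and 13.7 CPM in PARGi replicates 1 to 3. The lowest PARGi value was just above the highest DMSO value (log2 fold change 0.12, 95% interval 0.0039 to 0.24, edgeR adjusted p = 0.129). MT-TE, which borders MT-ND6, was at 2.39, 1.54 and 2.00 CPM in DMSO and 2.23, 2.68 and 2.66 CPM in PARGi (log2 fold change 0.36, SE 0.14, edgeR adjusted p = 0.0598). MT-TQ was at 9.15, 6.42 and 9.89 CPM in DMSO and 9.38, 10.1 and 10.4 CPM in PARGi (log2 fold change 0.23, SE 0.095, edgeR adjusted p = 0.0885). For both the groups overlapped, and without DMSO replicate 2 the values were 0.215 for MT-TE and 0.066 for MT-TQ. Leaving out other libraries brought calls. MT-TE passed without DMSO replicate 1 (0.507, edgeR adjusted p = 0.0164) and without PARGi replicate 1 (0.431, edgeR adjusted p = 0.0465). MT-TQ passed without DMSO replicate 3 (0.358, edgeR adjusted p = 0.0036). MT-TW, the heavy-strand tryptophan tRNA, had 26, 39 and 33 counts in DMSO and 17, 28 and 23 in PARGi. Scaled to depth the groups were separate (log2 fold change -0.62, SE 0.27, edgeR adjusted p = 0.107). MT-TA, MT-TY, MT-TS1 and MT-TT had values of 0.30, 0.21, -0.063 and -0.50, with standard errors of 0.29, 0.20, 0.11 and 0.33. Single libraries moved these values: MT-TT was at -0.118 without DMSO replicate 2, MT-TY at 0.087 without DMSO replicate 3, and MT-TA at -0.025 without PARGi replicate 3.

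Copies of mitochondrial sequence in the nuclear genome can share reads with the mitochondrial genes. The annotation lists 417 such copies by name, of which 84 had at least 1 count and 11 were tested. Their counts equalled 0.315% to 0.375% of the mitochondrial counts of a library, and 84.4% of them belonged to MTATP6P1 (chromosome 1, 633696 to 634376). MTATP6P1 averaged 106 ± 16.3 CPM under DMSO and 99.8 ± 3.92 CPM under PARGi (log2 fold change -0.088, SE 0.061, edgeR adjusted p = 0.323), beside 1577 and 1528 CPM for MT-ATP6. MTCO1P12 and MTND2P28, also on chromosome 1, had means of 11.5 and 2.76 CPM in DMSO. None of the 11 copies passed in edgeR's test. Values of MT-ATP6, MT-CO1 and MT-ND2 are uncertain to the extent that reads were divided or discarded.

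The last comparison concerned nuclear genes that make and process mitochondrial RNA. Factors for mitochondrial DNA transcription and maintenance were called in 9 of 24 cases, 7 higher and 2 lower (37.5%, against 24.3% of all genes tested), with a median log2 fold change of 0.032. POLRMT, the mitochondrial RNA polymerase, averaged 60.5 ± 4.62 CPM under DMSO and 60.3 ± 1.44 CPM under PARGi (log2 fold change -0.0070, SE 0.039, edgeR adjusted p = 0.926). TFAM, which packages mitochondrial DNA and starts its transcription, was at 165 ± 4.22 and 164 ± 1.64 CPM (-0.0056, SE 0.026, edgeR adjusted p = 0.910). The member with the smallest p was RRM2B, a ribonucleotide reductase subunit and known p53 target that supplies nucleotides outside S phase. It was at 124, 125 and 123 CPM in DMSO and at 166, 175 and 178 CPM in PARGi replicates 1 to 3. The groups were far apart (log2 fold change 0.48, SE 0.027, edgeR adjusted p = 5.28e-12). SLC25A36, a mitochondrial pyrimidine nucleotide carrier, rose by 0.12, and MGME1, a mitochondrial exonuclease, by 0.10 on the log2 scale. POLG, the mitochondrial DNA polymerase, rose from 94.0 ± 4.51 to 101 ± 2.06 CPM (0.10), and TOP3A, a topoisomerase, by 0.097. TK2, a mitochondrial thymidine kinase, fell by 0.10 and the DNA ligase LIG3 by 0.094. With upper-quartile scaling 3 members were higher and 2 lower. Without DMSO replicate 1, DMSO replicate 2 or PARGi replicate 3, 4 of the 24 members passed in each case. Over all genes, 4051 of 20996, 4603 of 21039 and 3624 of 20613 passed in the same order. In each of these settings the share of the list was below that of all genes.

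Factors for mitochondrial RNA processing and stability were called in 10 of 38 cases, 7 higher and 3 lower, with a median log2 fold change of 0.041. The share of 26.3% is near the 24.3% of all genes tested. With upper-quartile scaling the split was 2 higher and 5 lower. GRSF1, an RNA-binding protein of mitochondrial RNA granules, had the smallest p. It was at 176, 173 and 172 CPM in DMSO and at 193, 192 and 188 CPM in PARGi, without overlap (log2 fold change 0.14, SE 0.025, edgeR adjusted p = 0.000228). ELAC2, the nuclease that cuts the 3′ ends of mitochondrial tRNAs, rose from 62.6 ± 1.29 to 67.9 ± 0.73 CPM (0.12, edgeR adjusted p = 0.00369). The RNA methyltransferase NSUN2, the tRNA-modifying enzyme CDK5RAP1 and TBRG4, a protein of the FASTK family, rose by 0.094, 0.10 and 0.096. PTCD2 fell by 0.17, NSUN3, which methylates mitochondrial tRNA, by 0.13 and ANGEL2 by 0.12 on the log2 scale. LRPPRC, which stabilises mitochondrial mRNAs, averaged 276 ± 8.07 CPM under DMSO and 267 ± 1.72 CPM under PARGi, short of the threshold (-0.048, SE 0.026, edgeR adjusted p = 0.185). Without PARGi replicate 1 or PARGi replicate 3, 4 members passed, all higher, beside 4028 of 21130 and 3624 of 20613 genes tested.

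Regulators of mitochondrial biogenesis were called in 4 of 14 cases, all lower, with a median log2 fold change of -0.059. The share of 28.6% is near the 24.3% of all genes tested that were called in either direction, and 11.0% of all genes were called lower. PPARGC1A, the coactivator PGC-1alpha, fell the most. It was at 9.09, 9.10 and 8.60 CPM in DMSO and 5.78, 5.50 and 4.83 CPM in PARGi replicates 1 to 3. The groups were well separated (log2 fold change -0.74, SE 0.072, edgeR adjusted p = 3.98e-08). The other 3 were the subunits of the GA-binding protein, a transcription factor of nuclear genes for mitochondrial proteins: GABPB1 (-0.15), GABPB2 (-0.15) and GABPA (-0.12), with adjusted p-values from 0.00444 to 0.0267 in edgeR's test. GABPA overlapped between the groups. Without PARGi replicate 3, 2 members passed, and without DMSO replicate 2, 7 passed, 5 lower and 2 higher. Over all genes, 3624 of 20613 and 4603 of 21039 passed in these settings.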

How the data were processed

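The authors deposited unnormalized read counts for each gene, and libraries were grouped by their titles. The submitters' processing notes name cutadapt 1.18, STAR 2.7.3a, SAMtools 1.9, DESeq2 3.12 and deepTools, and the build hg38. The annotation release and the treatment of multimapping and ambiguous reads are not given in the sources used here. Total RNA and a stranded kit were used, per the labels' protocols. Classes, positions and sequences came from GENCODE 29 (GRCh38).

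Genes kept by filterByExpr (20409) were fitted in edgeR 4.0.16 under R 4.3.3, with TMM scaling and treatment as the only term. They were tested by quasi-likelihood (glmQLFit, glmQLFTest). On simulated data this procedure called 62% of changes of 0.2 in log2 and 90% of changes of 0.5 in the right direction. Of its calls there, 8.43% were false. Smaller changes, like those of the called mitochondrial genes, were not simulated. Single values were compared by exact two-sided permutation of libraries on log2 values. Alternatives were DESeq2 1.42.0, its size factors, upper-quartile scaling, scaling on nuclear genes, no filter on low counts, at least 10 counts in every library, a replicate block, and each library left out. All mRNAs, rRNAs and tested tRNAs were named, the 3 nuclear copies with the highest level, and from the nuclear lists POLRMT, TFAM, LRPPRC and up to 5 called genes per direction with the smallest p. Members, lists and tests were chosen with earlier results of these data known. No library duplicated another (chi-square per degree of freedom over genes, 2.27 to 16.1).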

Additional observations from a re-analysis of the deposited data

How the results depend on the processing

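Among the values of the main comparisons under alternatives, 96 were rated as kept, and 14 counts moved further. For summed levels, shares of counts and ratios, kept means the same sign, whatever the size. The mRNA difference of -0.058, which became -0.0046 without DMSO replicate 1, is rated as kept. For counts it means within 1.5 times the main count, whatever the direction of the calls. For single genes and gene pairs, 270 values kept direction and call, 15 changed sign, 13 passed the threshold newly and 12 no longer passed. The 6 mitochondrial genes called became 3 with DESeq2 and 10 with no filter on low counts. The latter added MT-RNR2, MT-TQ, MT-ND6 and MT-TE as higher. With a library left out, the count ran from 3 (without PARGi replicate 2) to 12 (without DMSO replicate 3). Of all genes tested, 4824 of 38276 passed with no filter and 4849 of 20563 without DMSO replicate 3. Transcription and maintenance factors fell from 9 to 5 with DESeq2 and to 5 with upper-quartile scaling, and ran from 4 to 10 with a library left out. RNA processing factors went from 10 to 6 with DESeq2 and ran from 4 to 10. Biogenesis regulators, 4 in the main test, ran from 2 to 7. The 7 mRNAs whose shares did not overlap became 6 with shares per kilobase and 7 to 8 with a library left out. Fold changes that changed sign with a library left out ran from -0.061 to 0.036 (MT-ND2), -0.075 to 0.025 (MT-CO1), -0.077 to 0.038 (MT-CO2), -0.087 to 0.026 (MT-ATP6), -0.156 to 0.024 (MT-ND4L), -0.063 to 0.029 (MT-ND4), -0.031 to 0.372 (MT-ND6), -0.021 to 0.035 (MT-RNR1), -0.025 to 0.54 (MT-TA) and -0.134 to 0.002 (MT-TS1). The log2 difference of the MT-ND4 to MT-ND4L ratio ran from -0.0045 to 0.094. MT-RNR1 was at -0.011 with upper-quartile scaling. Over all genes, 54.5% of calls were higher in the test as fitted and 40.5% with upper-quartile scaling, which shifted the median by -0.0244. The cause of these changes was not tested.

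The replicate block called the same 6 mitochondrial genes and moved no list by over 1.5 times (7, 10 and 4 called). Same-numbered libraries did not deviate together (r = -0.00585, 0.0157 and -0.00785), so the numbers were not taken as pairs. For 14 of the 22 tRNAs the counts were too few for a test, and whether depth limited them was not tested.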
